A study of Mus musculus with 6 samples.

Results

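The genes examined were cation-chloride cotransporters and the kinases that control them, chosen by gene symbol from a list of 8 names: Slc12a2, Slc12a5, Slc12a7, Wnk1, Wnk2, Wnk3, Stk39 and Oxsr1. Of the 8 names, 7 matched a row of the 22544 rows in the authors' deposited table, and all of these 7 had been tested. Wnk3 matched no row by its symbol or by an older symbol and was not analysed here. RNA sequencing was done on neurons of the upper cortical layers that carried GFP and were sorted from Swiss Webster mice by fluorescence-activated cell sorting. Neurons from postnatal day 5 (P5, 3 biological replicates) were set against neurons from postnatal day 3 (P3, 3 biological replicates), with no treatment or genotype given in the labels at either age. How the neurons came to carry GFP, and how many animals went into each replicate, is not given in the sources used here. Levels are FPKM (fragment numbers divided by the length of the transcript and by the library total), with 1 value per age pooled from the replicates by the authors. The replicates have no values of their own here, and their spread enters only as far as the deposited test statistic carries it.

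Chloride inside a neuron sets what GABA-A and glycine receptors do when they open. NKCC1, the product of Slc12a2, brings sodium, potassium and chloride into the cell, whereas the potassium-chloride cotransporters, or KCCs, carry chloride out. KCC2, the product of Slc12a5, is the neuron-specific KCC, and in rodent cortex its rise after birth accompanies the change of GABA from a depolarising to a hyperpolarising transmitter. WNK kinases, which are inhibited by chloride, phosphorylate the kinases SPAK (Stk39) and OSR1 (Oxsr1), and these phosphorylate the cotransporters, activating NKCC1 and inhibiting the KCCs.

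The Slc12a5 row covered only 1 of the known starts of this gene. RefSeq gives a pair of start sites on GRCm38.p6 chromosome 2, plus strand, 7142 bases apart. The upstream one begins the isoform KCC2a and the downstream one begins KCC2b, which is the main form in mature cortex. The deposited locus (mm9 chromosome 2, 164793488 to 164825231) spans 31744 bases. From the downstream start to the annotated end of the gene there are also 31744 bases in RefSeq, against 38886 bases from the upstream start. The row thus matches in length a gene model that begins at the downstream start, while the exons shared with KCC2a lie inside it. The region of each start, from 250 bases before it to 50 bases after it, is shown because the levels below were measured over the model of the second one. Capitals mark the E-box CACGTG, the hexamer bound by basic helix-loop-helix factors such as USF, which reads the same on both strands.
Slc12a5 upstream start, chr2:164960596-164960895 (GRCm38.p6, plus strand): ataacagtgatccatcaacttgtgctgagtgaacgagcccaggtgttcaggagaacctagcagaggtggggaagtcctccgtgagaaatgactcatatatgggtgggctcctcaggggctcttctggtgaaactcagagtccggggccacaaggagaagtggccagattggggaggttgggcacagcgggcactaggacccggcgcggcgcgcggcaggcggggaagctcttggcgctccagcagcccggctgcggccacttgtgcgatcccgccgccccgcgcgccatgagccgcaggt
Slc12a5 downstream start, chr2:164967738-164968037 (GRCm38.p6, plus strand): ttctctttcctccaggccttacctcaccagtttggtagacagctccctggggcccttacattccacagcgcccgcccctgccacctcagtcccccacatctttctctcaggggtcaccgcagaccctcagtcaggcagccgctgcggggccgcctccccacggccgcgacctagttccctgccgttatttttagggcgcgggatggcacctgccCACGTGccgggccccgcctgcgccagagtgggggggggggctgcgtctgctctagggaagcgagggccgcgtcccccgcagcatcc
The hexamer was found once in the downstream region, its first base 36 bases before the start, and not in the upstream region. It was present in 7.15% of the 32851 start regions of the RefSeq table. The G and C content was 63.7% in the upstream and 68.3% in the downstream region, against a median of 52.7% over all start regions. These sequences are a description, and nothing in the table bears on which factors bound them.

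No member differed between P5 and P3 in the authors' test. Cuffdiff called 0 of the 7 members at q = 0.05, and 0 at an unadjusted p of 0.05. Over the whole table it called 0 of 12865 rows, or 0%, at that q, and 99 rows, or 0.77%, at that unadjusted p. The members' p-values in the authors' deposited table lay between 0.43 and 0.97, and their q was 0.999988. At P5 the FPKM was higher in 4 members and lower in 3. Of the 12313 tested rows above 0 at both ages, 55.6% were higher and 44.4% lower, and of the 4789 rows within the members' range of mean FPKM 57.4% were higher. Their median log2 ratio of FPKM, P5 over P3, was 0.07, beside 0.13 over all tested rows and 0.20 over the rows in that range. All ratios below are on this log2 scale, and their standard error (SE) is the one implied by the deposited test statistic. The SEs of the members ran from 0.89 to 1.78, so a member needed a log2 ratio between 1.74 and 3.50 in size, depending on the gene, to reach an unadjusted p of 0.05. A smaller observed ratio could not reach that unadjusted p, and q = 0.05 asked for a ratio at least as large.

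The chloride importer Slc12a2 was among the more abundant members. It had 6.93 FPKM at P5 and 4.98 FPKM at P3 (mm9 chromosome 18, 58038332 to 58106475). The log2 ratio was 0.48 (SE 0.98, 95% interval -1.45 to 2.41, p = 0.63 in the authors' deposited table). Its level was above that of 55.5% of tested rows at P5 and of 50.4% at P3, which put it near the middle of the table at both ages.

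Slc12a5, the neuronal chloride exporter, was listed below Slc12a2 at both ages. It had 3.19 FPKM at P5 and 1.43 FPKM at P3, above 35.7% and 25.7% of tested rows at those ages. With a ratio of 1.16 (SE 1.48, 95% interval -1.74 to 4.06), or 2.24-fold, it was the member with the largest ratio and the lowest p (p = 0.43 in the authors' deposited table). It was also the only member of the 7 with a log2 ratio of at least 1, a size reached by 23.9% of tested rows and by 26% of rows at the members' levels. None of the 7 had a log2 ratio of -1 or lower, as 10% of tested rows and 11.2% of rows at the members' levels did. The interval covers both a higher and a lower level at P5.

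Slc12a7 encodes KCC4, a KCC found in several epithelia and in parts of the nervous system. It was the least abundant member at both ages, with 1.50 FPKM at P5 and 1.42 FPKM at P3 (log2 ratio 0.07, SE 1.73; mm9 chromosome 13, 73901145 to 73954190). Slc12a5 was 2.13 times as abundant as Slc12a7 at P5, while at P3 the FPKM of these KCC genes was nearly equal.

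The balance of Slc12a2 to Slc12a5 was above 1 at both ages. Slc12a2 was at 2.17 times the FPKM of Slc12a5 at P5 and at 3.49 times at P3. The log2 of this ratio was lower at P5 by 0.69, with a difference of -0.69 (SE 1.78, 95% interval -4.17 to 2.80) when the errors of both genes are taken as independent. With 1 FPKM added to every value the difference was -0.38. The interval includes 0 and is wide enough to hold a large shift in either direction.

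**Figure D1:**
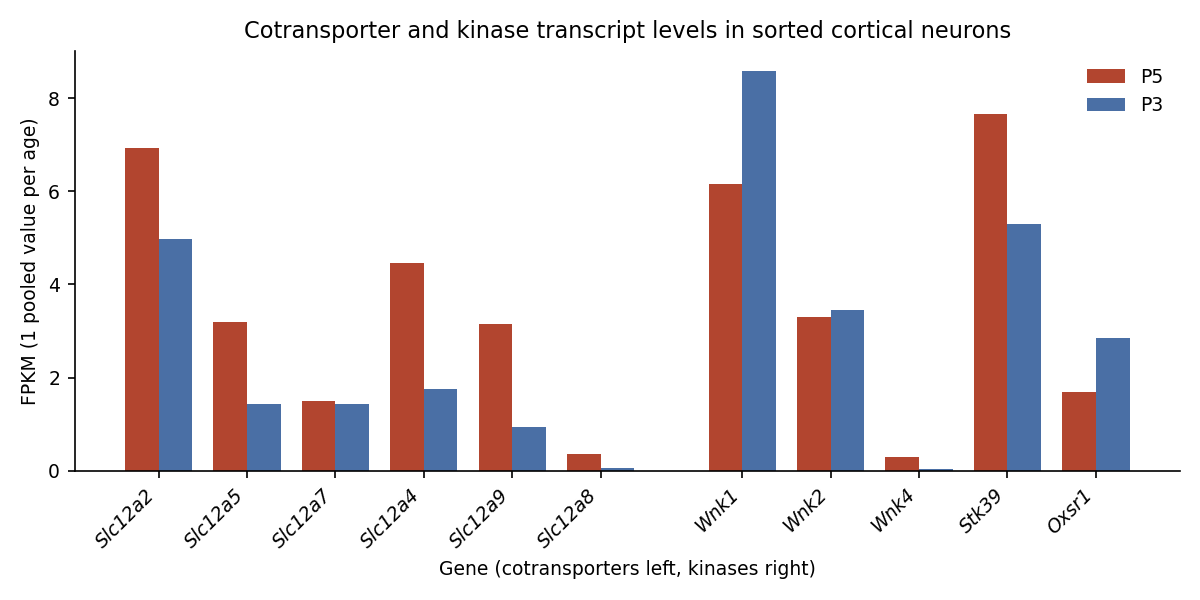
Bars give FPKM from 0, with 1 pooled value per age and no error, for P5 (left bar of each pair) and P3 (right bar); cotransporter genes stand on the left and kinase genes on the right. Stk39 at P5 (7.67 FPKM) and Wnk1 at P3 (8.59 FPKM) are the tallest bars of the members, and Slc12a5 is low at both ages (3.19 and 1.43 FPKM).

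Other genes of the SLC12 family placed these levels in context. KCC1, the product of Slc12a4, is regarded as the housekeeping KCC. Slc12a4 had 4.47 FPKM at P5 and 1.75 FPKM at P3 (log2 ratio 1.35, SE 1.44). Slc12a9, an orphan member of the family, had 3.15 FPKM at P5 and 0.94 FPKM at P3 (1.75, SE 1.87). Slc12a8, an atypical member, was at 0.37 FPKM at P5 and 0.065 FPKM at P3 and was not tested. The kidney cotransporter genes Slc12a1 and Slc12a3 were listed at 0 at both ages. Of these 5 genes 2 were tested, 0 passed the test, and both tested genes had higher FPKM at P5, with a median log2 ratio of 1.55.

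The WNK kinases stand at the top of the pathway. Wnk1, the most widely expressed of them, had 6.17 FPKM at P5 and 8.59 FPKM at P3, the highest level of any member at P3. Its log2 ratio was -0.48 (SE 0.89, 95% interval -2.21 to 1.26, p = 0.59 in the authors' deposited table; mm9 chromosome 6, 119873987 to 119988673). The table gives this locus also to the microRNA gene Mir706, which was listed at 0. Wnk2, a WNK kinase enriched in brain, had 3.31 FPKM at P5 and 3.45 FPKM at P3 (-0.06, SE 1.14; mm9 chromosome 13, 49131671 to 49243383). Its levels at the 2 ages were nearly equal, although the 95% interval of the ratio, -2.30 to 2.18, does not show that they were the same. Wnk4, best known from the kidney, was at 0.30 FPKM at P5 and 0.026 FPKM at P3 and was not tested. Summed, Wnk1, Wnk2 and Wnk4 had 9.78 FPKM at P5 and 12.1 FPKM at P3.

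SPAK and OSR1, which act between the WNK kinases and the cotransporters, had ratios of opposite sign. Stk39 had 7.67 FPKM at P5 and 5.30 FPKM at P3 (log2 ratio 0.53, SE 1.15, 95% interval -1.71 to 2.78; mm9 chromosome 2, 68048504 to 68310038), the highest level of any member at P5. Oxsr1 had 1.70 FPKM at P5 and 2.85 FPKM at P3 (-0.74, SE 1.78, 95% interval -4.24 to 2.75; mm9 chromosome 9, 119149784 to 119213966). Stk39 was at 4.51 times the FPKM of Oxsr1 at P5 and at 1.86 times at P3. The log2 of that ratio differed between the ages by 1.28 (SE 2.12, 95% interval -2.88 to 5.43). The summed FPKM of both kinases was 9.37 at P5 and 8.15 at P3.

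In order of level, the members at P5 were Stk39, Slc12a2, Wnk1, Wnk2, Slc12a5, Oxsr1 and Slc12a7. At P3 the order was Wnk1, Stk39, Slc12a2, Wnk2, Oxsr1, Slc12a5 and Slc12a7. The levels ran from 7.67 down to 1.50 FPKM at P5 and from 8.59 down to 1.42 FPKM at P3, a 5.12-fold and a 6.04-fold range. Because the table gives no spread for a level at 1 age, neighbours in these orders cannot be told apart by replicate error.

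**Figure D2:**
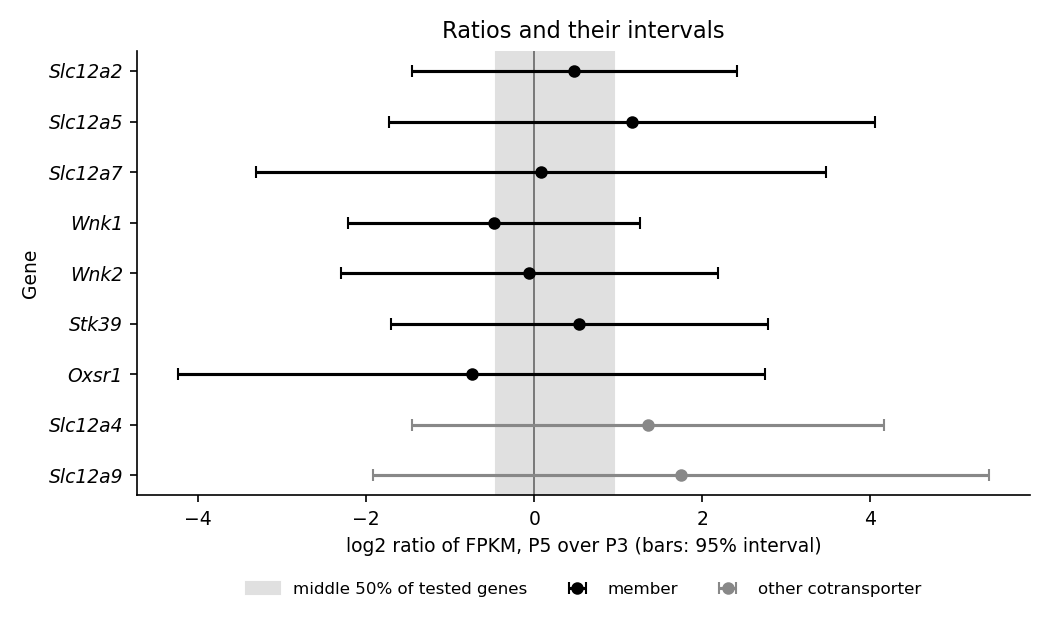
Points are log2 ratios of FPKM, P5 over P3, and bars their 95% intervals from the implied SE, for the 7 members (black) and 2 other tested cotransporter genes (grey); the shaded band holds the middle 50% of tested genes. Every interval drawn crosses 0, that of Slc12a5 running from -1.74 to 4.06.

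The genes whose pair of levels lay nearest to that of Slc12a5 were Gprc5b (3.23 FPKM at P5 and 1.44 FPKM at P3), Lmo7 (3.14 and 1.44 FPKM) and Cenpo (3.12 and 1.45 FPKM). Nearest to Slc12a2 were Nampt (6.86 FPKM at P5 and 5.03 FPKM at P3), Tfpt (7.02 and 4.92 FPKM) and Gss (6.95 and 5.06 FPKM). Likeness was the larger of the differences in log2 FPKM at both ages among 9030 of the 9665 tested rows with at least 1 FPKM at each age, leaving out rows that named several genes, predicted genes or Rik clones. The largest such difference among these 6 genes was 0.030. Only 2 pooled values per gene were compared.

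Other genes of the WNK pathway were examined as a list of 9, of which 7 were tested and 0 passed the test, with FPKM at P5 higher in 4 and lower in 3. Their median log2 ratio was 0.03. MO25 proteins, scaffolds that activate SPAK and OSR1, are encoded by Cab39 and Cab39l. Cab39 had 19.8 FPKM at P5 and 13.1 FPKM at P3, and Cab39l 8.99 and 5.82 FPKM at the same ages. Cul3 encodes the scaffold of the ubiquitin ligase that, with the adaptors KLHL2 and KLHL3, degrades WNK kinases. It had 23.8 FPKM at P5 and 23.3 FPKM at P3, and Klhl2 had 18.7 and 28.4 FPKM, while Klhl3 was at 0.17 FPKM at P5 and listed at 0 at P3. The genes of this list with the lowest p of the authors' deposited table were the ubiquitin ligase gene Nedd4l, with 5.596 FPKM at P5 and 11.2 FPKM at P3 (p = 0.26), and the kinase gene Sgk1, with 18.6 FPKM at P5 and 6.73 FPKM at P3 (p = 0.32). Hsp90ab1, a chaperone gene, was the most abundant of the list at 277 and 304 FPKM. Cab39, Cab39l, Klhl2 and Klhl3 were named after their values were seen.

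Partners and regulators of the cotransporters, a list of 19, had 16 tested genes, of which 0 passed the test. FPKM was higher at P5 in 10 of them and lower in 6, with a median log2 ratio of 0.24. The brain creatine kinase gene Ckb, whose product binds KCC2, had 13.3 FPKM at P5 and 3.47 FPKM at P3 (log2 ratio 1.93, SE 1.55). Actr2, a subunit gene of the actin-nucleating Arp2/3 complex, had 53.2 FPKM at P5 and 129 FPKM at P3 (-1.28, SE 0.95). These had the lowest p-values of the list in the authors' deposited table, 0.21 for Ckb and 0.18 for Actr2. The most abundant genes of the list encode catalytic subunits of protein phosphatase 1, which removes phosphate from the cotransporters. Ppp1ca had 276 FPKM at P5 and 187 FPKM at P3, at a locus given also to Rad9, and Ppp1cb had 146 and 157 FPKM. The remaining catalytic subunit gene, Ppp1cc, was listed at 0 at both ages, which in a table of this kind can be a failed estimate. Neto2, whose product binds KCC2, was at 17.5 FPKM at P5 and 14.9 FPKM at P3. For transcription factors reported to act on Slc12a5, Egr4 was listed at 0 at both ages, and the repressor gene Rest had 1.53 FPKM at P5 and 3.86 FPKM at P3 (-1.34, SE 1.41). Ppp1cc, Neto2, Egr4 and Rest were named after their values were seen.

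The sorted cells carried transcripts of other cell types, some of which also use the members. Slc12a2 is expressed in glia, vessels and choroid plexus as well as in neurons, and the WNK and SPAK kinases are found in many cell types. Summed FPKM of 10 astrocyte markers was 2409 at P5 and 1540 at P3, with 9 of 10 higher at P5, and that of 11 oligodendrocyte lineage markers was 309 and 140, with 9 of 9 higher among those above 0 at both ages and with Mag and Mog listed at 0 at P3. The sum over 10 microglia markers was 150 at P5 and 16.5 at P3, with 10 of 10 higher, and over 10 endothelial and mural markers 957 and 919, of which Rgs5 made up 905 and 911. Of the 9 tested endothelial and mural markers 7 were higher at P5, and Tek was listed at 0 at P3. The summed level of 11 upper-layer markers was 518 at P5 and 504 at P3, with 6 of 11 higher and none at 0. Without the most abundant of them, Mef2c and Rorb, the other 9 summed to 141 at P5 and 229 at P3. The summed level of 9 general neuronal markers was 1312 at P5 and 809 at P3, with 7 of 9 higher at P5. Stmn2 alone made up 758 FPKM at P5 and 332 FPKM at P3, and the other 8 summed to 554 and 478, among them Neurod6 with 109 FPKM at P5 and 237 FPKM at P3. Interneuron markers summed to 499 at P5 and 243 at P3, with 4 of 7 tested genes higher. Most of that sum came from Npy (356 FPKM at P5 and 155 FPKM at P3) and Sst (95.6 and 30.1 FPKM), and without them the order turned round, with 47.4 at P5 and 57.9 at P3. The median log2 ratio of the interneuron list was 0.28, and Dlx1 had 15.7 FPKM at P5 and 28.5 FPKM at P3. Neurod6 and Dlx1 were named after their values were seen. Of 6 choroid plexus markers all were listed at 0 at P3 and 4 at P5, where the others, Ttr and Kl, summed to 0.17. The part of the other cell types in the levels of Slc12a2, Stk39 and the other members was not tested, and in such pooled cells a change in the number of cells of a type and a change in RNA per cell cannot be told apart.

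**Figure D3:**
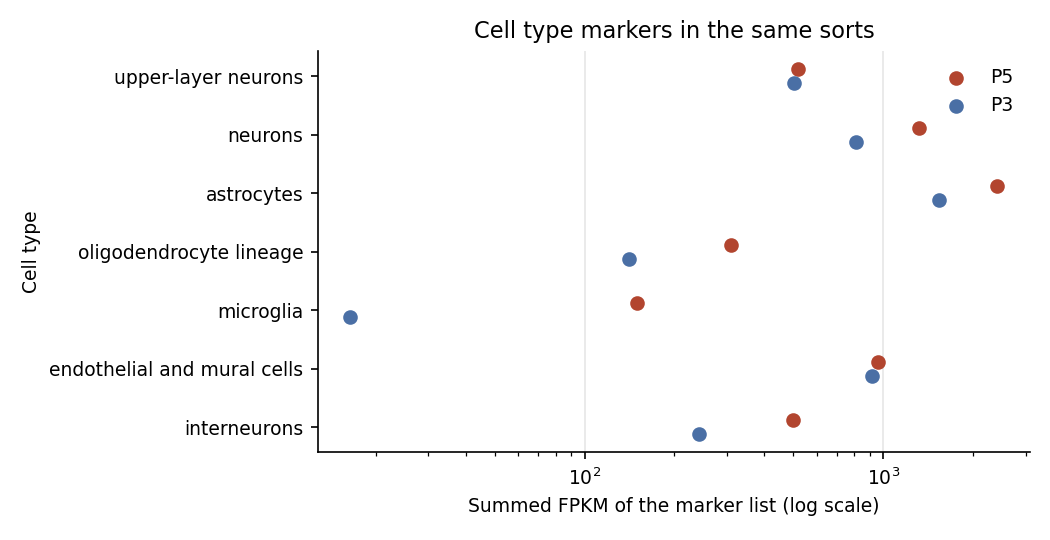
Points give the summed FPKM of each marker list on a log scale, P5 above P3 in each row, as 1 pooled value per age. Microglia markers lie furthest apart between the ages, at 150 and 16.5 FPKM, while the upper-layer sums lie close together at 518 and 504 FPKM. Without Mef2c and Rorb the other 9 upper-layer markers summed to 141 FPKM at P5 and 229 FPKM at P3. Rgs5 makes up most of both endothelial and mural sums (905 FPKM at P5 and 911 FPKM at P3).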

How the data were processed

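The authors deposited 1 table comparing P5 with P3 gene by gene. Per the file headers it holds FPKM as 1 value pooled per age, a log2 ratio (P5 over P3) with its test statistic (both read here as scores, since the ratio holds a placeholder where 1 age is at 0), a p-value and a q-value. Per the submitters' processing notes, TopHat, Cuffdiff 2.02 and build mm9 were used; for annotation, strandedness and read numbers the sources used here give nothing. FPKM pooled over libraries holds no counts, so depth is unknown.

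The main test was the authors' Cuffdiff test at q = 0.05 for rows with status OK. In 12313 tested rows above 0 at both ages the deposited p matched a two-sided normal tail probability of the statistic to within 2.8e-06. The statistic had the same sign as the ratio in 0 of these rows. Directions were therefore read from the ratio, which matched the FPKM values to within 1.51e-05. Dividing the absolute ratio by the absolute statistic gave the SE, and 95% intervals ran 1.96 SE to either side. This step and the Benjamini-Hochberg adjustment were run on simulated normal data with known SEs, where this step returns the SE by construction. That checks the code, and it does not show that the SEs or intervals hold in these data. Whether the replicates share litters or days is not stated.

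Named genes were all members, the other SLC12 genes listed, Wnk4, of each pathway list the 2 most abundant and the 2 with the lowest p (at least 5 FPKM at either age), and of each marker list the most abundant and the one with the lowest p, of which not all are described. Most list genes are counted without being named; a few genes were taken off the lists and are not reported here. Members and lists were chosen with earlier results of these data known. Older symbols were matched through RefSeq (Map2 and Epb41l1). Loci are mm9 as deposited, with starts read as counted from 0 and printed from 1. Start regions are from RefSeq on GRCm38.p6, where 7 of 8 members had an entry. Python 3.11.15, pandas 2.3.3, numpy 2.4.6 and scipy 1.17.1 were used.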

Additional observations from a re-analysis of the deposited data

How the results depend on the processing

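The count of members called was 0 at an unadjusted p of 0.05, the lowest member p of the Cuffdiff test being 0.43. It could then only be 0 at q = 0.01, with Bonferroni adjustment, or with adjustment over rows that reached 1 FPKM at P5 or P3. The count was also 0 when the statistic was divided by its robust spread, 0.66, over the 12313 tested rows above 0 at both ages. That spread is below the 1 of a standard normal, so the SEs may be too wide. With SEs scaled by it, the 95% interval of Slc12a5 was -0.76 to 3.08 and that of Slc12a2 was -0.80 to 1.75. Member ratios were also taken with pseudocounts of 1 and 0.1 FPKM. They were further centred on the median ratio of rows with at least 1 FPKM at both ages (0.02). All 7 kept their sign, in 21 of 21 cases within 1 SE of the value given. A pseudocount added at both ages cannot change a sign, the centring was small, and the SEs were wide. These cases therefore say little about how sure the ratios are. With a pseudocount of 1 FPKM the ratio of Slc12a5 was 0.79. The difference in the Slc12a2 to Slc12a5 balance was -0.38 and -0.64 with these pseudocounts. As a mean in place of a median, the value was 0.14 for the members (median 0.07), 0.14 for the other WNK pathway genes and 0.62 for the chloride and bicarbonate carriers. The list of chloride and bicarbonate carriers had a median of 0.07 with a pseudocount of 1 FPKM. Its sign and that of the other lists' medians was kept in all 18 cases. In the cases with a pseudocount no single gene's ratio could change sign. No paired analysis was possible because the table holds 1 pooled value per age, and leaving out each replicate was not run for the same reason. Levels of 1 to 9 FPKM with wide errors limit every statement on a single member.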

Other observations

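Other chloride and bicarbonate carriers and channels, which also move chloride or set its gradient, had 19 tested genes of 23. Cuffdiff called 0 of them, FPKM at P5 was higher in 12 and lower in 7, and the median log2 ratio was 0.16. Car2, a carbonic anhydrase gene that oligodendrocytes express strongly, had 59.9 FPKM at P5 and 16.8 FPKM at P3 (log2 ratio 1.83, SE 1.01, p = 0.07 in the authors' deposited table). Slc4a4, a sodium-bicarbonate cotransporter gene of astrocytes, had 30.0 FPKM at P5 and 11.3 FPKM at P3 (1.41, SE 1.09). The most abundant were Lrrc8a, which encodes the essential subunit of volume-regulated anion channels, at 342 FPKM at P5 and 475 FPKM at P3, and the endosomal exchanger gene Clcn3 at 53.5 and 61.1 FPKM. The part of glial transcripts, whose marker sums were higher at P5, in the values of Car2 and Slc4a4 was not tested.

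The sodium pump keeps the ion gradients that NKCC1 and the KCCs run on. FPKM at P5 was higher in 4 of the 5 subunit genes examined and lower in 1, with a median log2 ratio of 0.80, and 0 passed the test. Atp1b2, a beta subunit gene found mainly in glia, had 75.9 FPKM at P5 and 31.2 FPKM at P3 (1.28, SE 0.95), and Atp1b1 had 135 and 77.9 FPKM, at a locus given also to Nme7.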
